A study of Homo sapiens with 17 samples.

Results

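GFP-mCherry+ cells were compared between day 25 and day 40 of directed differentiation, in 3 libraries of each day. They are human embryonic stem cell derivatives that carried the mCherry reporter and lacked GFP, which reports SHOX2, a transcription factor of the sinoatrial node. Genes of macrophages and related leukocytes rose, among them FCER1G which was listed at 0 to 4.44 FPKM on day 25 and stood between 11.7 and 24.5 FPKM on day 40. None of the genes listed for the sarcomere, the channels that set the membrane potential or the intercalated disc passed the test. Of all genes tested 5.12% passed, so that few calls would be awaited in lists of this size. TNNT2 stood between 4420 and 7000 FPKM in all 6 libraries, and the 95% interval of its log2 difference ran from -0.71 to 1.26. A much larger number of genes fell, most of them with GC-rich transcripts, and 38 of the 605 that fell also passed after each library was corrected for GC content. MIF, MZT2B and NDUFS7 were among these 38, though not with library 14 left out as well. FCER1G also passed after this correction, and it too did not with library 14 left out as well.

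The comparison used 6 of the 17 libraries of the series and the 13718 genes, of 20218 in the table, that reached at least 1 FPKM (fragments mapped to a gene, scaled to transcript length and to the mapped total of the library) in at least 2 of those 6 libraries. All cells derive from H9, an established line of human embryonic stem cells, and are labelled as the SHOX2 line. The day 25 libraries carry the numbers 2, 5 and 8 and the day 40 libraries the numbers 11, 14 and 17. The other groups were GFP+mCherry+ cells (3 libraries on day 25 and 2 on day 40) and GFP-mCherry- cells (3 on each day). The labels describe induction with CHIR99021, BMP4 and Activin A, followed by XAV939 for cardiomyocytes. For the sinoatrial procedure they add cucurbitacin, retinoic acid, SU5402, XAV939, Tyrphostin AG 490 and chidamide, and they do not say which procedure gave each sorted population. No treatment that differs between the days is named. The gene behind mCherry is not named either, and MYH6, which encodes the atrial myosin heavy chain, was taken for it from general knowledge. The labels do not say whether replicate libraries stem from independent cultures. The p-values therefore cover only the spread among these libraries, and that spread may be technical. Libraries 1 to 9 are all of day 25 and libraries 10 to 18 all of day 40, so that the day and any step shared by libraries of a day cannot be told apart.

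Cardiomyocytes made from stem cells resemble those of an early embryonic heart. With longer culture they are known to assemble more regular sarcomeres, to replace early protein isoforms by later ones, to raise calcium handling and to move from glucose toward fatty acids as fuel. A differentiation culture also holds other cells of mesodermal origin, and macrophages are the resident immune cells of the heart, first seeded from yolk sac precursors. A sorted population measured in bulk is an average, and in such data fewer cells of a type and less RNA per cell cannot be told apart.

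The 6 libraries carried the cardiomyocyte programme on both days. The summed level of 12 cardiomyocyte markers ran from 26900 to 36600 FPKM on day 25 and from 27400 to 40300 on day 40. TNNT2, the cardiac troponin T gene, stood at 4420, 5960 and 5610 FPKM in the day 25 libraries 2, 5 and 8 and at 7000, 5400 and 6930 in the day 40 libraries 11, 14 and 17. MYL7, the atrial light chain gene, exceeded it in every library, at 7770 FPKM or more. SHOX2 itself was at 1.73, 0.901 and 1.34 FPKM on day 25 and at 1.39, 2.41 and 1.81 on day 40, near the filter limit, with a log2 difference of 0.31 ± 0.32 (standard error; limma, adjusted p 0.687). Every sample is labelled as sinoatrial-node-like, and SHOX2 was this low in all 6, while HCN4, the main pacemaker channel gene, was present at 26.7 to 55.1 FPKM. Levels of the markers by library are shown in the plot of cardiomyocyte genes.

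**Figure D1:**
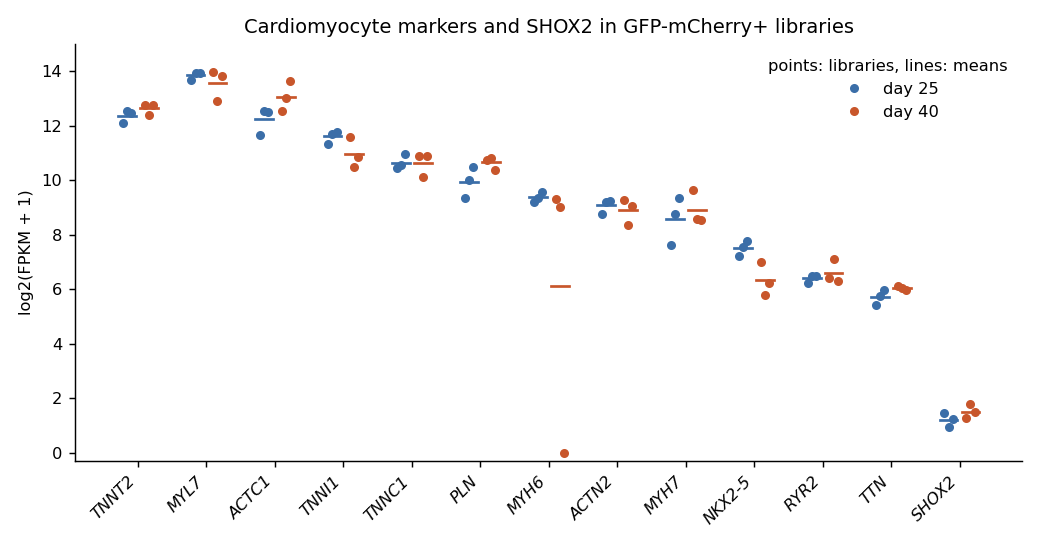
Levels of 12 cardiomyocyte genes and SHOX2 in the 6 GFP-mCherry+ libraries. The vertical axis is log2(FPKM + 1), each point is a library, short lines are means of 3 libraries, and blue and orange mark day 25 and day 40. TNNT2 and MYL7 are high in all 6 libraries, SHOX2 lies near 1 FPKM in all 6, and MYH6 is listed at 0 in library 17 only.

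Other cell types were present at lower summed levels. Markers of fibroblasts and stroma summed to 2920 to 4040 FPKM on day 25 and to 1980, 7330 and 2290 FPKM in libraries 11, 14 and 17, so that library 14 stood far above its neighbours. Smooth muscle markers summed to 808 to 1160 FPKM on day 25 and to 784 to 2270 on day 40. Epithelial markers summed to 315, 336 and 255 FPKM on day 25 and to 182, 236 and 249 on day 40. Those of endoderm and liver summed to 247, 708 and 130 FPKM and then to 180, 419 and 185. Epicardial markers stayed at or below 129 FPKM, endothelial markers at or below 52.0 FPKM and neuronal markers at or below 37.6 FPKM. Markers of macrophages and blood summed to 19.8, 13.7 and 1.31 FPKM on day 25 and to 39.3, 53.8 and 67.9 FPKM on day 40, with no overlap. In that list the haemoglobin genes HBG1, HBA1 and HBZ were at 0 in all 6 libraries. Library 14 also had the fewest genes above 0 of the 6 (16597, the others at least 17104) and the lowest mean correlation with the other libraries of its group (r of 0.9422), and results are given without it where it decides them.

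Across all genes, 98 were higher on day 40 and 605 were lower at an adjusted p under 0.05 in limma's test on log2(FPKM + 1), fitted to all 17 libraries with a mean for each of 6 groups. This is 0.714% and 4.41% of the genes tested, or 5.12% together. Of the called genes, 82 rose and 464 fell by at least 2-fold. The 3 libraries of day 40 lay entirely above those of day 25 for 6.2% of all genes and entirely below for 14.7%, and they did so for 97 of the 98 genes that rose and 599 of the 605 that fell. The log2 differences understate the change of genes with low values. How many genes passed depended on the libraries, with 136 without library 2, 122 without library 5, 778 without library 8, 1659 without library 11, 78 without library 14 and 191 without library 17. With only the 6 GFP-mCherry+ libraries in the fit, which leaves 4 residual degrees of freedom in place of 11, 10 genes passed (0.0729%), 1 higher (CCL4) and 9 lower, and 2228 had an unadjusted p under 0.05.

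The direction of change followed base composition. Genes that fell had a median transcript GC content of 63.7%, against 46.5% for genes that rose and 48.9% for all genes tested. In the decile of genes with the highest GC content (62.2% to 74.5%), 95.7% of the log2 differences were below 0, the median was -0.83 and 391 genes fell. In the 6 deciles with the lowest GC content the medians lay between 0.04 and 0.11. In these GC-richest genes the libraries deviated from the mean of all 17 by 0.51, 0.38 and 0.16 on day 25 (libraries 2, 5 and 8) and by -0.11, -0.86 and -0.49 on day 40 (libraries 11, 14 and 17). The days did not overlap, and library 14 was the most extreme. The same decile had medians of -0.63 between the days in the GFP+mCherry+ cells and -0.41 in the GFP-mCherry- cells.

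**Figure D2:**
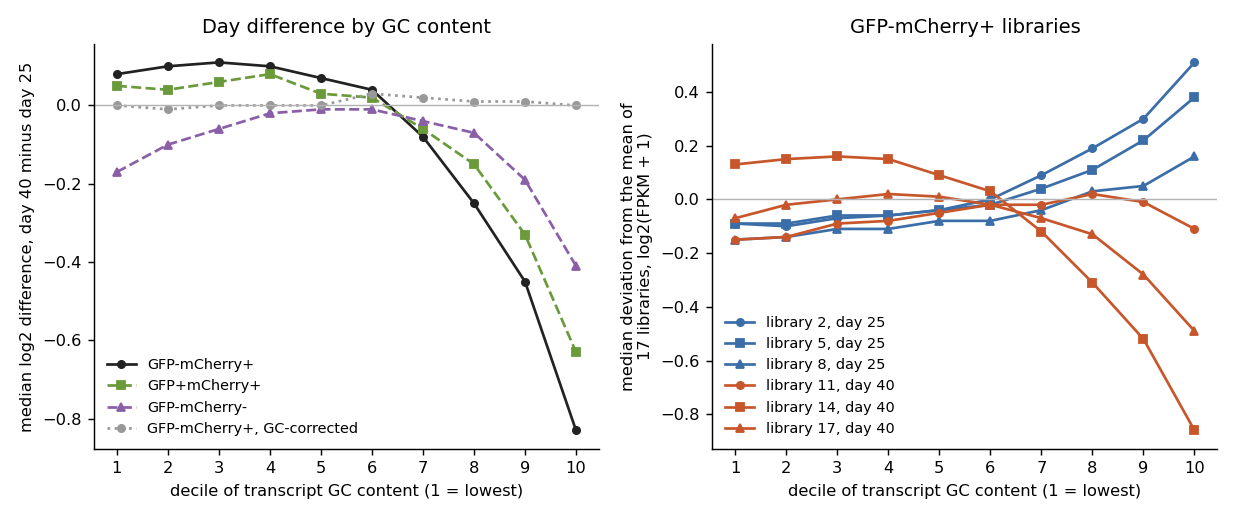
Left, median log2 difference between day 40 and day 25 in each decile of genes by GC content of the transcript, for the 3 sorted populations and for the GFP-mCherry+ cells after correction. Right, median deviation of each GFP-mCherry+ library from the mean of all 17 libraries on the log2(FPKM + 1) scale. In the decile with the highest GC content the day 25 libraries lie at 0.16 to 0.51 and the day 40 libraries at -0.86 to -0.11.

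The opening coding bases of the 3 named genes that rose most and of MIF and MZT2B, among the named genes that fell most, show this contrast in the transcripts themselves. They are the first 120 coding bases, 5′ to 3′, of the longest coding transcript of each gene in GENCODE v29 (GRCh38), with G and C in capitals and A and T in lower case.
SPP1: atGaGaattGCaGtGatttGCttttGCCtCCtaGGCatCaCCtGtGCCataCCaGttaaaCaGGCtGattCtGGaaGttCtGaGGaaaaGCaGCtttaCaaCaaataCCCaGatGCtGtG
SULT1E1: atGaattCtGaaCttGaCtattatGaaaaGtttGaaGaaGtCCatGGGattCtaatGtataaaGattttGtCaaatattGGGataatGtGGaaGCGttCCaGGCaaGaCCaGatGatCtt
FCER1G: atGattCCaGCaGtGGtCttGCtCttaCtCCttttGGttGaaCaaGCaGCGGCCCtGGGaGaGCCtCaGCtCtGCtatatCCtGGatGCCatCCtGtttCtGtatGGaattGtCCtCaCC
MIF: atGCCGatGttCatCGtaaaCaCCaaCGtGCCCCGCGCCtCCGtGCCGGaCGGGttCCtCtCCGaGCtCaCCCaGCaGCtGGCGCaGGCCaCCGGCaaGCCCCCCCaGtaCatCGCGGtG
MZT2B: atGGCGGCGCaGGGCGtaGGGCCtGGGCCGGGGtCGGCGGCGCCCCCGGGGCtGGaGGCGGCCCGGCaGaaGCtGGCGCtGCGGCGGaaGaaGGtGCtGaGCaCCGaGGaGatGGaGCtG

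The stretches of the 3 genes that rose lie on the plus strand at chr4:87976896-87980072 (SPP1, over 3 coding exons), the minus strand at chr4:69857525-69857644 (SULT1E1) and the plus strand at chr1:161215322-161218056 (FCER1G, over 2 coding exons). They hold 44.2%, 34.2% and 50.8% G and C. Those of the genes that fell lie on the plus strand at chr22:23894475-23894783 (MIF, over 2 coding exons) and chr2:130182283-130182402 (MZT2B). They hold 67.5% and 76.7%, and the full transcripts 66.7% and 67.8%. Because the libraries of the days differ in this property, each group of genes is given below also after a loess correction of every library for GC content. After this correction 58 genes were higher (0.425%) and 38 lower (0.278%), or 0.703% together. They included 47 of the 98 and 38 of the 605 called before, and 560 of the 605 still had a log2 difference below 0. With library 14 left out as well, 22 genes passed, and with only the 6 libraries in the corrected fit none did (1396 at an unadjusted p under 0.05). The part of GC content in the decreases was not tested further.

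Genes of macrophages and other leukocytes rose. Of 14 measured members of a list of macrophage and blood markers, 7 rose and none fell, where 0.714% of all genes tested were higher. The median log2 difference was 1.44, against -0.03 over all genes. The genes that rose were PTPRC (CD45, the common leukocyte phosphatase), CSF1R (the receptor for macrophage growth factor), CD68 (a lysosomal protein), CD163 (a haemoglobin scavenger receptor), FCER1G, LAPTM5 and HLA-DRA. After the GC correction 6 of the 14 passed, and the median was 1.37. In 11 of the 14 the day 40 libraries lay entirely above those of day 25, as they did for 6.2% of all genes. The other 8 genes of the list, among them the haemoglobins, did not reach the filter. Of the 14 that did, 6 would not have done so without day 40 libraries (PTPRC, SPI1, CD14, CD163, ITGAM and HLA-DRA), 3 of them among the 7 that rose, so that the count and the median are descriptions only.

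FCER1G, the shared signalling chain of Fc receptors (ENSG00000158869, chr1:161185024-161190489 on hg19), stood at 4.44 and 2.69 FPKM in libraries 2 and 5 and was listed at 0 in library 8, and it reached 11.7, 21.2 and 24.5 FPKM on day 40. The log2 difference was 2.83 ± 0.50 (limma, adjusted p 0.00784), and 2.77 after the GC correction (adjusted p 0.0165). LAPTM5, a lysosomal protein of blood cells, was at 5.74, 3.17 and 0.301 FPKM on day 25 and at 14.9, 14.1 and 21.1 on day 40 (2.39 ± 0.44, limma, adjusted p 0.00932). In both genes the days did not overlap, as their choice among the 10 largest increases required, and library 8 was the lowest of the 6. With the correction and without library 14 neither gene passed.

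HLA-DRA, the alpha chain of an MHC class II molecule of antigen-presenting cells, was at 0.392 and 0.306 FPKM and listed at 0 on day 25, against 3.42, 2.94 and 2.56 FPKM on day 40 (1.70 ± 0.24, limma, adjusted p 0.00303). CD68 was at 3.68, 5.17 and 0.684 FPKM and then at 10.2, 13.1 and 19.6 (2.02 ± 0.44, limma, adjusted p 0.0162). CSF1R went from 3.53, 1.61 and 0.428 FPKM to 7.15, 6.49 and 8.04 (1.68 ± 0.38, limma, adjusted p 0.0195). For each of the 3 genes every day 40 library was above every day 25 library, and the day 40 levels remained low beside those of cardiomyocyte genes. HLA-DRA reached the filter only through day 40 libraries, where it is high, so that its separation is a description only.

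The remaining members split, and PTPRC, CD163, SPI1, ITGAM and CD14 would not have reached the filter without day 40 libraries. PTPRC (1.32 ± 0.32, limma, adjusted p 0.0262) and CD163 (1.41 ± 0.35, adjusted p 0.0287) passed only without the GC correction, and with it their differences were 1.23 and 1.32 (adjusted p 0.0861 and 0.104). SPI1, the PU.1 transcription factor of the myeloid lineage, was at 1.66, 0.752 and 0.112 FPKM on day 25 and at 1.56, 0.423 and 1.69 on day 40, which overlap. Its difference was 0.31 ± 0.32 (adjusted p 0.681) as deposited and 1.17 (adjusted p 0.034) after the correction, with a transcript GC content of 65.15%. TYROBP (1.68 ± 0.54, adjusted p 0.0839), AIF1 (1.47 ± 0.48, adjusted p 0.0882), ITGAM (1.11 ± 0.33, adjusted p 0.0665), CD14 (0.63 ± 0.24, adjusted p 0.144) and LYZ (0.81 ± 0.37, adjusted p 0.245) did not pass. CD74, the invariant chain of MHC class II, which other cells can also make, was at 9.17 to 22.8 FPKM on day 25 and at 11.8 to 14.2 on day 40 (-0.13 ± 0.25, adjusted p 0.85). The count of 7 became 6 without library 2, 4 without library 5, 4 without library 8, 9 without library 11 and 3 without library 14 or library 17.

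The 10 named genes with the largest increases hold FCER1G, LAPTM5 and 7 others that are known from leukocytes and are not on that list. SPP1 (osteopontin, a matrix protein that macrophages secrete, ENSG00000118785, chr4:88896819-88904562 on hg19) stood at 96.0, 46.7 and 7.40 FPKM on day 25 and at 197, 411 and 576 on day 40. This was the largest increase, with a log2 difference of 3.41 ± 0.68 (limma, adjusted p 0.0116). The chemokine gene CCL4 was at 0.280 and 0.234 FPKM and listed at 0 on day 25, against 3.54, 4.58 and 7.94 FPKM on day 40 (2.39 ± 0.31, limma, adjusted p 0.00215). With the 6 libraries alone its adjusted p was 0.041. CCL4 and CCL3 reached the filter only through day 40 libraries, where they are high. Reads of CCL4 and of its neighbour CCL3 can be shared with near-identical copies of these genes, so their levels are less certain. CCL3 (2.37 ± 0.36), MS4A6A (a myeloid membrane protein, 2.49 ± 0.41), RGS1 (a regulator of G protein signalling in leukocytes, 2.48 ± 0.47), SRGN (serglycin, a granule proteoglycan, 2.28 ± 0.48) and VSIG4 (a complement receptor of tissue macrophages, 2.14 ± 0.47) also rose, with adjusted p in limma between 0.00428 and 0.0165. The days did not overlap in any of these 7, as the choice of the 10 genes required.

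Other genes of this kind were picked out after their values were seen. C1QA (1.45 ± 0.37) and C1QB (1.69 ± 0.45) encode chains of the complement starter C1q, which macrophages make, TREM2 (2.03 ± 0.37) a lipid-sensing receptor, CD53 (2.02 ± 0.34) a tetraspanin of leukocytes and CYBB (1.76 ± 0.33) the oxidase of phagocytes. STAB1 (1.42 ± 0.38), a scavenger receptor, HLA-DMB (2.08 ± 0.43), which loads MHC class II, and APOC2 (1.79 ± 0.36) also rose, with adjusted p in limma between 0.00619 and 0.0413 over the 8. The days overlapped in C1QB only. These 8 and the 7 named genes outside the list, 15 in all, passed after the GC correction too. Without library 14 there were 5 of the 15, without library 17 there were 6, and without library 5 there were 9, with every one of the 15 above 0 in each of these fits. With the correction and without library 14, 3 of the 15 passed. C1QA, C1QB, HLA-DMB and APOC2 also reached the filter only through day 40 libraries. The 15 genes were chosen by their increase or after their values were seen, so that these counts are descriptions only.

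**Figure D3:**
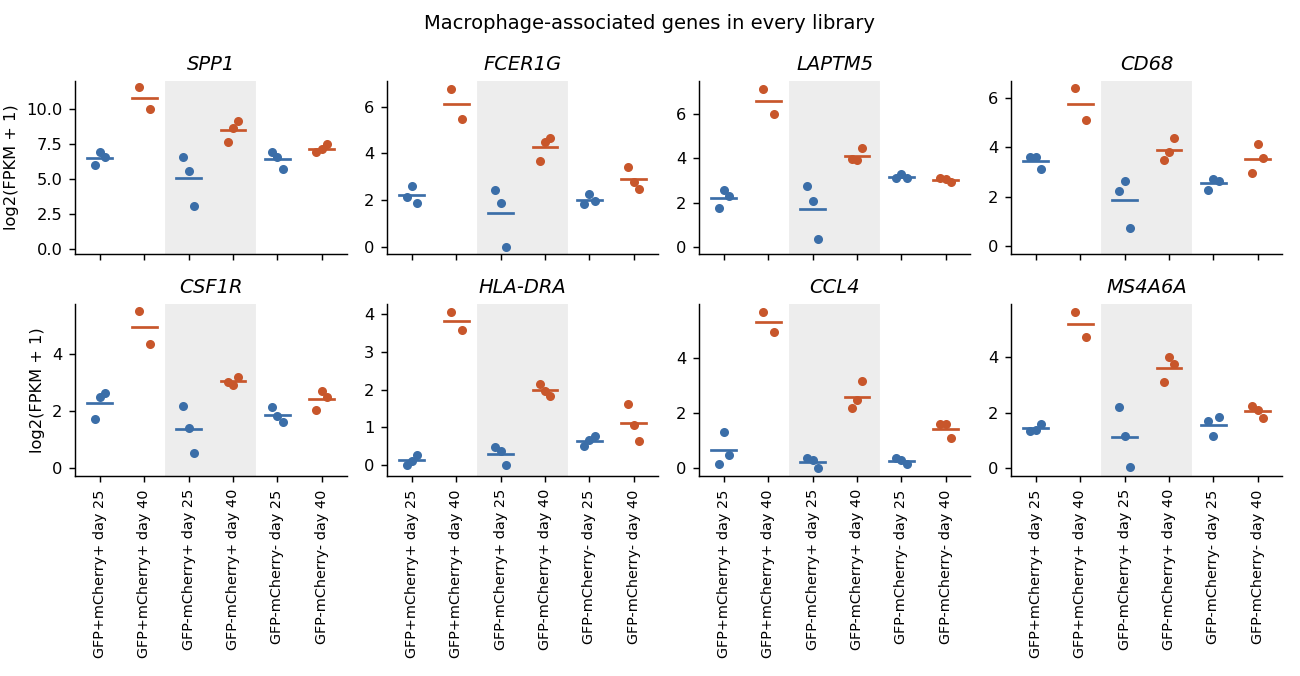
Levels of 8 macrophage-associated genes in all 17 libraries, as log2(FPKM + 1) on axes that differ between panels. Points are libraries, lines are means, and grey marks the GFP-mCherry+ cells. Day 40 lies above day 25 without overlap in the GFP-mCherry+ cells for all 8 genes, which the choice of SPP1, FCER1G, LAPTM5, CCL4 and MS4A6A required. HLA-DRA and CCL4 reached the filter only through day 40 libraries. The highest levels are those of the GFP+mCherry+ cells on day 40.

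The same genes stood higher in the GFP+mCherry+ cells on day 40 than in the GFP-mCherry+ cells. Mean FCER1G was 75.2 FPKM in GFP+mCherry+ cells of day 40, from 3.70 on day 25, and in GFP-mCherry- cells it was 6.73, from 3.03. Mean LAPTM5 was 102 and 7.23 FPKM in these populations on day 40. The summed marker list of macrophages and blood ran from 132 to 334 FPKM, from 39.3 to 67.9 and from 25.7 to 34.1 in GFP+mCherry+, GFP-mCherry+ and GFP-mCherry- cells on day 40. In tests of the difference between populations, the change of LAPTM5 in GFP-mCherry+ cells minus that in GFP+mCherry+ cells was -1.96 ± 0.67 (limma, adjusted p 0.723). Against GFP-mCherry- cells it was 2.52 ± 0.63 (limma, adjusted p 0.446). Neither passed, nor did that of any of the 98 genes that rose or the 605 that fell.

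Other genes rose as well. SULT1E1, the oestrogen sulfotransferase (ENSG00000109193, chr4:70676498-70725870 on hg19), rose from 5.97, 4.10 and 12.9 FPKM to 30.6, 72.2 and 76.8 FPKM. The days did not overlap, and the log2 difference of 2.84 ± 0.40 (limma, adjusted p 0.00299) was 2.76 after the correction (adjusted p 0.00485). In GFP-mCherry- cells it rose as well, from a mean of 13.8 to 60.6 FPKM (2.09 ± 0.40, limma, adjusted p 0.0127). A2M, the protease inhibitor alpha-2-macroglobulin, rose from 140, 104 and 263 FPKM to 348, 929 and 628 (1.90 ± 0.39, limma, adjusted p 0.0129), the highest level among these genes. SGK1, a kinase induced by glucocorticoids and serum, rose from 5.30, 6.46 and 6.41 FPKM to 15.7, 19.2 and 21.7 (1.48 ± 0.20, limma, adjusted p 0.00247). TMEM176A, a membrane protein, rose from 71.6, 93.1 and 126 FPKM to 207, 185 and 216 (1.09 ± 0.22, limma, adjusted p 0.0126), and its neighbour TMEM176B by 0.89 ± 0.24. KRT17, a keratin, rose by 1.86 ± 0.34 from a low level and reached the filter only through day 40. All but TMEM176B passed after the GC correction as well.

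A few of the increases were in genes of the heart muscle or of cytokine signalling, chosen after their values were seen. HOPX, a homeodomain protein that rises as cardiomyocytes mature, went from 3.5, 5.44 and 12.3 FPKM to 15.7, 15.2 and 18.6 (1.26 ± 0.35, limma, adjusted p 0.0467). MYBPHL, a myosin-binding protein of atrial and conduction muscle, went from 2.11, 3.33 and 7.93 FPKM to 11.3, 14.6 and 12.4 (1.47 ± 0.38, limma, adjusted p 0.0353). The days did not overlap in either, and library 8 was nearest to day 40. JAK2, the kinase of several cytokine receptors (0.94 ± 0.25), STAT3, its target (0.71 ± 0.20), and the survival gene MCL1 (0.79 ± 0.21) rose with adjusted p in limma between 0.0391 and 0.0472. None of these 5 passed after the GC correction, where their differences were 0.69 to 1.71 with adjusted p from 0.0874 to 0.152. Of the 11 genes in these last groups 3 passed without library 2, 3 without library 5, 9 without library 11, 2 without library 14 and 3 without library 17, and all 11 were above 0 each time.

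Antigen presentation and immediate early genes gave a few calls each. HLA-B and HLA-C were the members of 12 MHC class I genes that rose, with a median of 0.56 over the 12, and 1 member passed after the correction. The share of genes that rose was 0.714% over all genes tested, with a median of -0.03. HLA-B went from 13.8, 8.80 and 10.3 FPKM to 26.8, 61.9 and 38.7 (1.80 ± 0.32, limma, adjusted p 0.00784) and HLA-C from 75.7, 57.8 and 97.6 to 112, 190 and 148 (0.95 ± 0.24, limma, adjusted p 0.0305). Because MHC class I genes are alike in sequence, reads can be assigned to the wrong member. None of 18 interferon-stimulated genes passed, with a median of -0.15, and ISG15 had a difference of -2.09 ± 0.64 (limma, adjusted p 0.07).

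Of 22 immediate early genes, transcription factors and others switched on within minutes of a stimulus, 4 rose, with a median of 0.69. Over all genes tested 0.714% were higher and the median was -0.03. EGR1 went from 155, 134 and 212 FPKM to 330, 435 and 312 (1.11 ± 0.26, limma, adjusted p 0.0223) and FOSB from 17.5, 21.0 and 32.4 to 46.1, 76.2 and 63.8 (1.37 ± 0.28, limma, adjusted p 0.0126). The days overlapped in neither. EGR3 (1.42 ± 0.39) and NR4A2 (1.14 ± 0.31) rose too. Their differences were 1.45 and 1.07 after the GC correction, with adjusted p of 0.132 and 0.15. NR4A2 reached the filter only through day 40. No heat shock gene (7 measured) and no gene of the unfolded protein response (10 measured) passed. Of 12 complement genes 1 rose, with a median of 0.71, and 2 were higher after the correction, where 0.425% of all genes were. C4A went from 1.23, 1.03 and 1.99 FPKM to 5.59, 6.11 and 3.52 (1.32 ± 0.24, limma, adjusted p 0.00905). Reads of C4A and its near-identical copy C4B cannot be separated well. C4B, with a day 40 mean of 0.922 FPKM, passed only after the correction (0.91, limma, adjusted p 0.0283). Of the 7 genes that passed in these groups (HLA-B, HLA-C, C4A and the 4 immediate early genes) 2 passed without library 2, 1 without library 5, 5 without library 11, none without library 14 and 3 without library 17, and all 7 were above 0 each time.

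None of the 41 measured genes on the sarcomere list passed in either direction, with a median log2 difference of 0.21, and none did after the GC correction. Over all genes tested 5.12% passed before the correction and 0.703% after it. CRYAB, a small heat shock protein of the Z-disc, had the largest difference above 0 among them, at 313, 367 and 597 FPKM on day 25 and 838, 734 and 1070 on day 40. These values do not overlap, and the difference of 1.08 ± 0.40 had a 95% interval from 0.24 to 1.93 (limma, adjusted p 0.132). ACTC1, cardiac actin, was at 3220, 5900 and 5870 FPKM and then at 5970, 8390 and 12700 (0.84 ± 0.54, limma, adjusted p 0.45). MYH6 was at 595, 646 and 765 FPKM on day 25 and at 628 and 520 in libraries 11 and 14, and it was listed at 0 in library 17. Its difference of -3.27 ± 1.62 rests on that 0. With such values set to missing, a difference of -0.22 remained (limma, adjusted p 0.906).

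The isoform pairs that change as the heart matures were followed as the share of the later or ventricular form, from levels per transcript length. TNNI3, the adult troponin I, made up 3.28%, 3.33% and 2.88% of TNNI3 and TNNI1 together on day 25 and 3.29%, 3.53% and 7.80% on day 40. The day 40 mean was higher by 1.71 percentage points, most of it from library 17 (0.248 without it), and the exact permutation test over the 6 libraries gave p = 0.2, two-sided, where 0.1 is the smallest it can give. MYL2, the ventricular light chain, was 0.3%, 0.252% and 0.858% of MYL2 and MYL7 and later 0.674%, 1.53% and 0.955% (exact permutation p = 0.2). MYH7 made up 24.7%, 39.9% and 46.2% of MYH7 and MYH6 on day 25 and 55.9% and 42.3% in libraries 11 and 14. MYL3, which is shared by ventricle and slow muscle, made up 43.2%, 42.0% and 33.5% of MYL3 and MYL4 on day 25 and 35.1%, 24.8% and 25.3% on day 40 (exact permutation p = 0.2). Each of these ranges overlapped between the days, and none of the 8 genes passed in limma. The shares come from values without the GC correction. After the correction TNNI3, with a GC content of 61.31%, had a log2 difference of 0.46 in place of -0.09, and TNNI1 -0.51 in place of -0.63. The median was 0.53 in place of 0.12 over the 4 later forms and -0.35 in place of -0.51 over the 4 early forms. None of the 8 passed after it.

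Intervals show what sizes of change the data leave possible. For TNNI1, the fetal troponin I, at 2580, 3360 and 3510 and then 3060, 1450 and 1840 FPKM, the 95% interval of the log2 difference ran from -1.81 to 0.55. For MYL2, at 39.6, 39.1 and 137 and then 109, 120 and 140 FPKM, it ran from -0.01 to 2.05. For TNNT2 it ran from -0.71 to 1.26 and for TTN, the giant spring of the sarcomere, from -0.52 to 1.18. A change of 2-fold lies within each of these 4 intervals.

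Calcium handling gave 1 call in 23 genes measured, and the 24 membrane potential channels and 11 genes of the intercalated disc gave none. Over all genes tested 5.12% were called in either direction. CACNA1H, a T-type calcium channel of embryonic and nodal cells, was at 21.8, 18.3 and 9.23 FPKM on day 25 and at 9.82, 3.10 and 2.57 on day 40. It fell by 1.61 ± 0.39 (limma, adjusted p 0.0253), with libraries 8 and 11 overlapping, and did not pass after the GC correction (-0.66, adjusted p 0.329). SLN, the atrial inhibitor of the calcium pump, was at 28, 43.9 and 31.1 FPKM and then at 2.90, 26.7 and 4.36, with library 14 near day 25 (-2.06 ± 0.61, limma, adjusted p 0.0631). ATP2A2, the calcium pump itself, was at 518 to 630 FPKM on day 25 and 624 to 977 on day 40 (0.47 ± 0.23, adjusted p 0.276). RYR2, the calcium release channel, PLN, the brake of the pump, and HCN4 did not pass either. Among connexins, GJC1 was at 11.1 to 13.4 FPKM and then at 16.4 to 25.5 (0.65 ± 0.23, adjusted p 0.119) and GJA1, connexin 43, at 73.6 to 82.7 and 39.4 to 73.7 (-0.50 ± 0.26, adjusted p 0.326). JUP, plakoglobin of the desmosome, had a difference of -0.97 ± 0.28 (adjusted p 0.0534) and PKP2, plakophilin 2, one of 0.54 ± 0.18 (adjusted p 0.0901). After the GC correction these were -0.41 and 0.45 (limma, adjusted p 0.436 and 0.196).

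Energy metabolism showed calls in the lower direction only. In oxidative phosphorylation, COX6A2, the muscle form of a cytochrome oxidase subunit, COX8A and ATP5D fell, 3 of 46, with a median of 0.05 over the list. In fatty acid oxidation, ECI1, ACADS, ETFB and the uptake protein SLC27A1 fell, 4 of 31, with a median of 0.03. In glycolysis, the glucose transporter SLC2A1, PFKL and the lactate exporter SLC16A3 fell, 3 of 23, with a median of -0.27. Of the 46, 31 and 23 genes, 11, 3 and 1 had the day 40 libraries entirely above those of day 25. For 6, 6 and 4 they lay entirely below. Over all genes tested this held for 6.2% and 14.7%. The share of genes that fell was 4.41% over all genes tested. None of the 10 genes that fell in these lists passed after the GC correction, where their differences lay between -1.09 and -0.24. ETFB, with a GC content of 48.75%, had -1.04 before and -1.09 after it (adjusted p 0.106). SLC2A1 was at 581, 833 and 412 FPKM and then at 339, 233 and 228 (-1.16 ± 0.30, limma, adjusted p 0.0333), without overlap, and ECI1, an isomerase of unsaturated fatty acids, at 80.5, 106 and 94.2 and then at 54.2, 24.4 and 34.7 (-1.35 ± 0.24, limma, adjusted p 0.00768). After the correction the differences were -1.01 (adjusted p 0.125) and -0.80 (adjusted p 0.0582). In the lipid synthesis list, FASN, fatty acid synthase, fell from 120, 80.0 and 45.4 FPKM to 31.8, 5.81 and 17.1, and MVD, of the cholesterol pathway, fell too, 2 of 21, neither after the correction. Of these 12 genes 2 passed without library 2, 1 without library 5, 8 without library 8, 1 without library 14 and 2 without library 17, and all were below 0 each time. With median-of-ratios scaling or quantile normalization 5 of the 12 passed, and COX8A, ETFB, MVD, PFKL, SLC16A3, SLC27A1 and SLC2A1 did not. The master regulator of mitochondria PPARGC1A was at 11.1 to 26.5 FPKM on day 25 and 11.1 to 22.9 on day 40.

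Among cardiac transcription factors 4 of 41 fell and none rose, with a median of -0.19, against 4.41% lower and a median of -0.03 over all genes tested. HAND1, a regulator of the left ventricle, was at 44.7, 54.7 and 51.9 FPKM and then at 30.9, 27.8 and 24.5 (-0.84 ± 0.18, limma, adjusted p 0.0164). IRX1, an Iroquois factor, was at 15.8, 19.4 and 7.20 FPKM and then at 3.82, 2.20 and 1.71 (-2.02 ± 0.42, limma, adjusted p 0.0129). The nuclear receptors ESRRA and RXRA, which drive mitochondrial genes, fell by 1.24 ± 0.32 and by 1.08 ± 0.30. In all 4 the days did not overlap, and none passed after the correction. NKX2-5, with 149, 186 and 215 FPKM and then 128, 54.9 and 73.8, did not overlap either and did not pass (-1.16 ± 0.55, limma, adjusted p 0.26). With its transcript GC content of 66.24% the corrected difference was -0.21 (limma, adjusted p 0.94). The nodal factors TBX3 (0.40 ± 0.25) and ISL1 (-0.37 ± 0.30) did not pass. NKX2-6, a relative of NKX2-5 in pharyngeal and early cardiac cells that was chosen after its values were seen, fell from 8.84, 11.5 and 7.43 FPKM to 1.55, 0.627 and 0.868 (-2.36 ± 0.24, limma, adjusted p 0.000478). It passed after the correction (-1.19, adjusted p 0.0271) and with the 6 libraries alone.

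In growth factor signalling 3 of 59 fell, with a median of -0.29, against 4.41% lower over all genes tested. BMP4, a ligand that patterns mesoderm, was at 34.2, 34.0 and 23.9 FPKM and then at 12.8, 17.8 and 13.9 (-1.0 ± 0.23, limma, adjusted p 0.0202). Its target ID1 fell from 44.5, 35.7 and 29.3 FPKM to 24.0, 10.8 and 9.25, and NOTUM, a Wnt deacylase, fell from a low level. HOXB2 was the 1 call among 11 HOX genes (-1.30 ± 0.24, limma, adjusted p 0.00924). Of 20 oncofetal and pluripotency genes, HMGA1, a chromatin protein of embryonic cells (98.0, 86.6 and 67.7 FPKM, then 50.3, 21.1 and 31.6), and ARID3A fell. HMGA2, at 85.5, 58.9 and 43.6 FPKM and then 22.6, 36.4 and 31.1, just missed the threshold (-1.01 ± 0.29, adjusted p 0.053), and with its transcript GC content of 38.82% the corrected difference was -1.11 (adjusted p 0.0547). LIN28B, the let-7 blocker upstream of HMGA2, had a difference of -0.73 ± 0.24 (adjusted p 0.0891).

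Cell cycle genes gave 2 calls of 63, CDT1, which licenses replication origins (-1.70 ± 0.35, limma, adjusted p 0.0129), and MYCN (-0.82 ± 0.19, limma, adjusted p 0.0227), both lower. Over all genes tested 4.41% were lower. The 29 mitosis genes had a median of 0.41 and no call. TOP2A, of dividing cells, was at 27.9, 12.5 and 23.8 FPKM on day 25 and at 30.9, 34.3 and 24.9 on day 40 (0.53 ± 0.37, adjusted p 0.485), and library 5 was the lowest. Of the 13 genes that fell in the transcription factor, signalling, HOX, oncofetal and cell cycle lists and CACNA1H, 1 passed without library 2, 1 without library 5, 11 without library 8, 1 without library 14 and 1 without library 17. All 13 were below 0 in these fits, and none passed after the correction. The corrected differences were -0.89 for BMP4 (adjusted p 0.092), -1.05 for HOXB2 (adjusted p 0.07) and -1.02 for ID1 (adjusted p 0.0981), and -0.53 and -0.37 for ESRRA and RXRA.

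**Figure D4:**
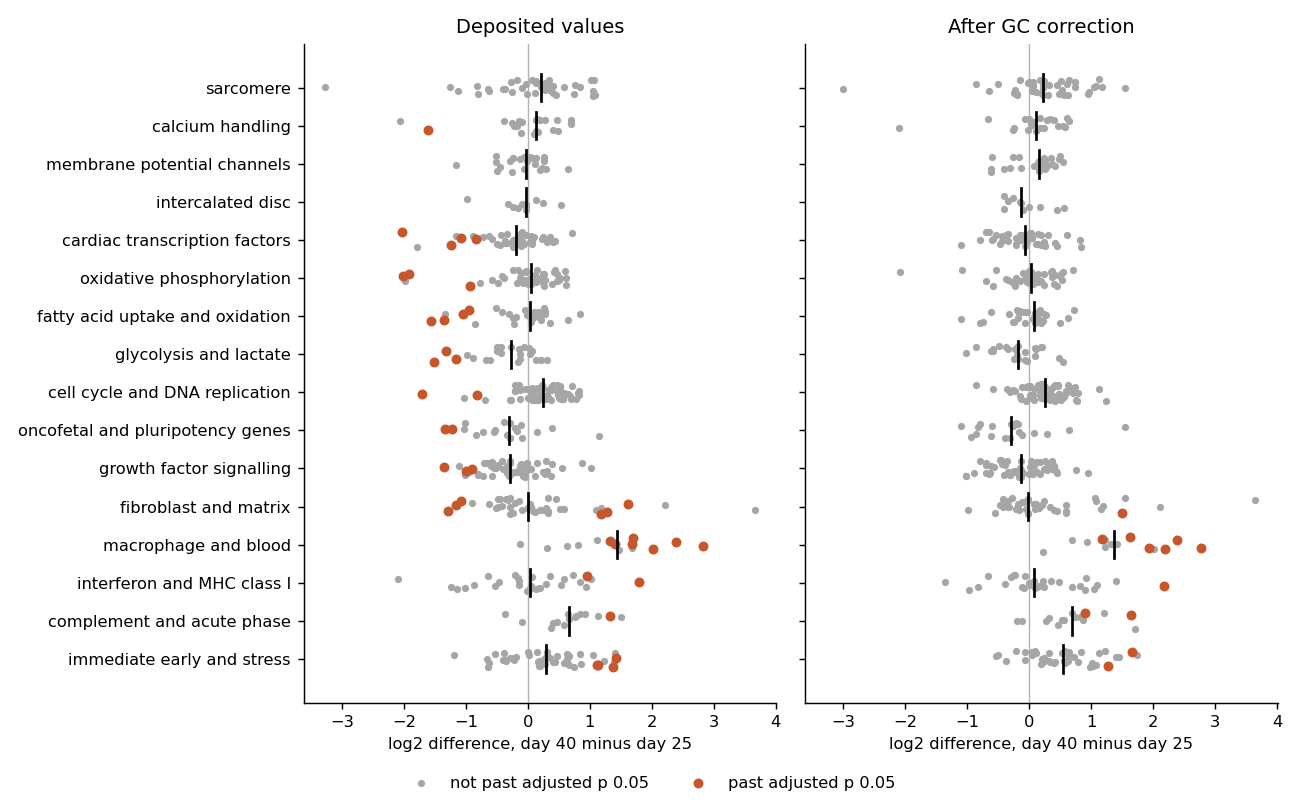
Log2 difference between day 40 and day 25 for each measured gene of 16 lists, from the deposited values (left) and after GC correction (right). Each point is a gene, placed at random height within its list, orange marks an adjusted p under 0.05, and black bars are medians. The macrophage and blood list has 7 orange points on the left and 6 on the right, and the sarcomere list has none in either.

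Matrix genes moved in both directions. MFAP4, a protein of elastic fibres (ENSG00000166482, chr17:19286755-19290553 on hg19), rose from 96.2, 182 and 205 FPKM to 343, 448 and 338 (1.28 ± 0.27, limma, adjusted p 0.0148), without overlap, and also after the correction (1.50, adjusted p 0.0406). ASPN, asporin, rose by 1.61 ± 0.39 and THBS1, thrombospondin 1, by 1.17 ± 0.31, and after the correction their differences were 1.55 and 1.08, which did not pass (adjusted p 0.104 and 0.117). COL1A1, the main chain of collagen I, fell from 720, 574 and 573 FPKM to 258, 403 and 237 (-1.08 ± 0.30, limma, adjusted p 0.0469), and COL6A1 and COL6A2 fell by 1.16 ± 0.21 and by 1.29 ± 0.28. The 3 collagens did not pass after the correction, and their transcripts have GC contents of 61.14% to 66.40%. Thus 3 of 41 fibroblast and matrix genes rose and 3 fell, with a median of 0.01. Over all genes tested 0.714% were higher and 4.41% lower. MMP9, a gelatinase, fell from 6.72, 3.07 and 3.67 FPKM to 0.225, 0.235 and 0.725, and did not pass after the correction (-1.30, adjusted p 0.173). Without library 14, whose stromal marker sum was the highest, none of these 7 passed, nor did any without library 2.

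The 10 named genes with the largest decreases follow. MIF, a cytokine that many cells make (ENSG00000240972, chr22:24236191-24237414 on hg19), was at 949, 832 and 616 FPKM on day 25 and at 152, 45.2 and 119 on day 40. It fell by 3.06 ± 0.54 on the log2 scale (limma, adjusted p 0.00784) and by 2.06 after the GC correction (adjusted p 0.0283). MZT2B, a subunit of the gamma-tubulin ring complex, was at 145, 128 and 122 FPKM and then at 24.3, 9.03 and 19.9 (-2.92 ± 0.44, limma, adjusted p 0.00427). The near-identical copy MZT2A can share its reads. NDUFS7, a core subunit of respiratory complex I that was not on the list of oxidative phosphorylation, was at 130, 153 and 139 FPKM and then at 45.9, 7.97 and 23.4 (-2.70 ± 0.47, limma, adjusted p 0.00784). The days did not overlap in these 3 genes, as the choice of the 10 required. Library 14 was the lowest in all 3, and the corrected differences passed. With the correction and without library 14 none of the 3 did.

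HIST3H2A, a histone H2A gene, was at 17.7, 20.3 and 16.5 FPKM and then at 4.16, 2.00 and 1.37 (-2.52 ± 0.31, limma, adjusted p 0.00106). SCAND1 (a SCAN domain protein, -2.82 ± 0.45), B4GALNT4 (a glycosyltransferase, -2.64 ± 0.36), PPP1R16A (a phosphatase regulator, -2.63 ± 0.45) and SIX5 (a homeodomain factor, -2.41 ± 0.38) fell with adjusted p in limma between 0.00247 and 0.00634. CASKIN1, a synaptic scaffold protein, fell from 30.4, 17.1 and 22.6 FPKM to 5.67, 0.588 and 1.81, and ANKRD63 from 5.77, 7.61 and 7.59 to 1.15, 0.131 and 0.200. The last 2 did not pass after the correction (adjusted p 0.0706 and 0.152), while the other 8 of the 10 did. Of the 10, 9 passed without library 2 and 8 without library 14, and all 10 without library 5, 8, 11 or 17. With the correction and without library 14, 4 of the 10 passed (HIST3H2A, SCAND1, B4GALNT4 and PPP1R16A).

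**Figure D5:**
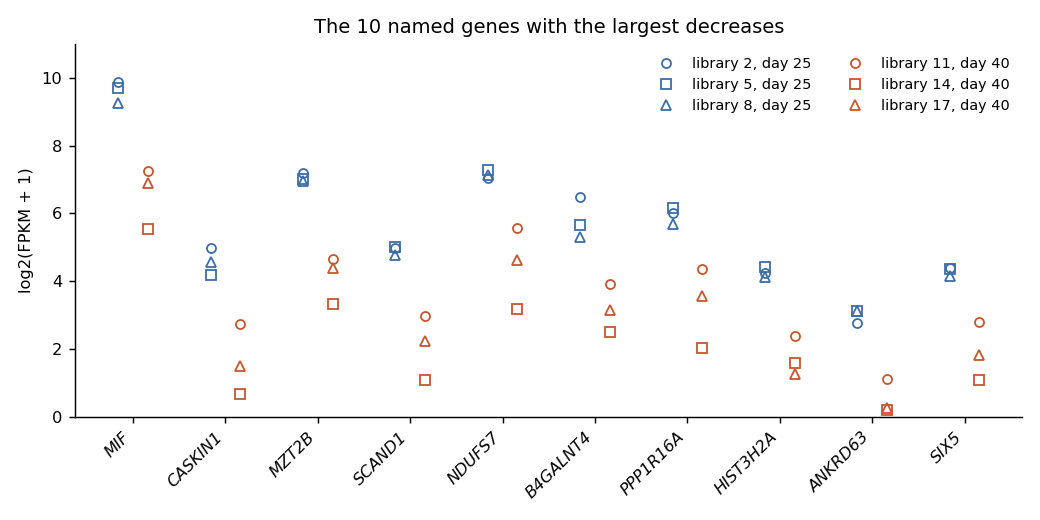
Levels in the 6 GFP-mCherry+ libraries of the 10 named genes that fell most, as log2(FPKM + 1). Blue symbols are day 25 and orange symbols day 40, with 1 shape for each library of a day. The days do not overlap for any of the 10 genes, as their choice required, and library 14 (orange squares) is the lowest for 9 of them.

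Of the 605 genes that fell, 11 had a GC content under 50%, and 6 of the 11 passed after the correction. The 6 genes described next lie near the middle of the GC range (44.12% to 52.95%) and were chosen after their values were seen. HMGN2, a nucleosome-binding protein (44.84% GC), was at 198, 125 and 140 FPKM and then at 68.7, 61.1 and 85.1 (-1.08 ± 0.22, limma, adjusted p 0.0123). DCTN2, a dynactin subunit (52.35% GC), was at 246, 289 and 218 FPKM and then at 125, 136 and 104 (-1.04 ± 0.17, limma, adjusted p 0.00551). ERP29, a chaperone of the endoplasmic reticulum (-0.86 ± 0.16), MED28, a Mediator subunit (-0.93 ± 0.19), the chromatin reader BRD3 (-0.72 ± 0.15) and EPN1, an endocytic adaptor (-1.70 ± 0.29), fell as well, with adjusted p in limma between 0.00634 and 0.0156. For these 6 genes the corrected differences lay between -1.63 and -0.68, close to those without correction, and all 6 passed. The days did not overlap in any of the 6, and library 17 was the lowest in 4 of them. Of the 6, 2 passed without library 2, 4 without library 5 and 4 without library 14 or 17. With the correction and without library 14, DCTN2 alone of the 6 passed.

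Further genes that fell both before and after the correction, chosen after their values were seen, were METRN and METRNL, secreted neurotrophic and metabolic factors (-2.30 ± 0.40 and -1.85 ± 0.31), EGFL7, an endothelial matrix protein (-2.30 ± 0.37), IGDCC3, a surface protein of embryonic tissue (-2.0 ± 0.37), the NAD synthesis enzyme QPRT (-1.32 ± 0.23) and the kinase PAK4 (-1.37 ± 0.23). Their adjusted p in limma lay between 0.00551 and 0.00924. IGDCC3 did not pass without library 2 or library 14, and with the correction and without library 14 none of these 6 genes nor NKX2-6 passed. IGDCC3 was at 28.3, 21.3 and 9.77 FPKM on day 25 and at 3.73, 3.70 and 3.97 on day 40, without overlap. GPX4, the enzyme that removes lipid peroxides, fell from 14100, 14900 and 7000 FPKM to 5150, 2180 and 2630 (-1.88 ± 0.39, limma, adjusted p 0.0129), and it did not pass after the correction (-1.01, adjusted p 0.163). Of the ribosomal proteins RPL13 and RPLP1 fell, 2 of 45, with a median of -0.06 over the list, where 4.41% of all genes tested were lower. After the correction RPL13 had -0.64 (adjusted p 0.22) and RPLP1 -1.29 (adjusted p 0.104), so that neither passed.

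The genes that changed in GFP-mCherry+ cells were also read in the other populations. They were chosen by their change in GFP-mCherry+ cells, so their medians there and elsewhere are a description. The 98 genes that rose had a median log2 day difference of 1.38 here, 2.32 in GFP+mCherry+ cells and 0.55 in GFP-mCherry- cells. Of them 60 (61.2%) were also called higher in GFP+mCherry+ cells, 31.2% of the 192 called there (1.4% of genes tested), and 10 (10.2%) in GFP-mCherry- cells, 7.04% of the 142 called there (1.04%). The 605 genes that fell had medians of -1.24 here, -0.85 in GFP+mCherry+ cells and -0.70 in GFP-mCherry- cells, with 105 (17.4%) and 113 (18.7%) also called lower there. These are 52.0% of the 202 genes called lower in GFP+mCherry+ cells (1.47% of genes tested) and 47.3% of the 239 in GFP-mCherry- cells (1.74%). The populations share no library but share the days. In the tests of the difference itself 1 gene passed against each population (0.00729% of those tested). The gene against GFP+mCherry+ cells was SASH3, which did not pass between the days in the GFP-mCherry+ cells (limma, adjusted p 0.226). SASH3 reached the filter only through day 40 libraries.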

How the data were processed

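RNA sequencing of 17 sorted libraries was analysed, 6 of them GFP-mCherry+. The values are FPKM per gene, made by the authors. The submitters' processing notes name bcl2fastq 2.19, cutadapt, STAR 2.5.2b and Cufflinks 2.1.1 with the hg19 build, and the annotation is not given in the sources used here. The deposited header names no unit, so that FPKM was taken from the named tools and from the values. Read depth is not known, no interval for counting error can be given, and precision rests on the spread between libraries. The 20368 rows, among them 71 repeats of an identifier, were reduced to 20218 gene names. For each name the row with the highest mean was kept.

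The test covered the 67.9% of genes that reached 1 FPKM or more in 2 or more of the 6 libraries. limma 3.58.1 in R 4.3.3 was fitted to log2(FPKM + 1) over 17 libraries and 6 group means, with a mean-variance trend, Benjamini-Hochberg adjustment over all genes tested and a threshold of 0.05. The script was tested on simulated data. GC content came from the longest GENCODE v29 transcript of 13657 genes (99.6%), and the correction was a loess curve per library with a span of 0.3. Alternatives changed the pseudocount, the filter, the scaling, the weights, the libraries in the fit and the treatment of values listed at 0. Python 3.11.15 made the tables.

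Named genes are SHOX2, MYH6 and cardiomyocyte markers, the 10 highest increases and 10 largest decreases among called genes with a mean of at least 5 FPKM and no overlap, up to 4 members of each list with the smallest adjusted p, the 8 genes of the isoform pairs and the called genes of each difference between populations. Others are marked as chosen after their values were seen, or stand beside their list to show a member that did not pass. The comparison and the gene lists were chosen with earlier results of these data known. The combinations of GC correction with other changes were added after seeing the data. The results of a few items are not reported here.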

Additional observations from a re-analysis of the deposited data

Results flagged for a closer look

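The day difference of SASH3 itself differed between populations in limma's interaction test. SASH3, a signalling adaptor of lymphocytes and other leukocytes, was at 0.904, 0.500 and 0.0109 FPKM in GFP-mCherry+ cells on day 25 and at 0.790, 1.02 and 1.36 on day 40, whereas GFP+mCherry+ cells had 0.496, 0.350 and 0.239 FPKM on day 25 and 10.4 and 12.2 on day 40. The change in GFP-mCherry+ cells minus that in GFP+mCherry+ cells was -2.65 ± 0.35 (limma, adjusted p 0.0142). SASH3 reached the filter only through day 40 libraries. With a pseudocount of 0.1 or after the GC correction no gene passed in this comparison. The 2 libraries of GFP+mCherry+ cells on day 40 also hold the highest sums of macrophage and blood markers (132 and 334 FPKM), and their part in this result was not tested. With an unadjusted p under 0.05 there were 791 genes in the comparison with GFP+mCherry+ cells and 847 in that with GFP-mCherry- cells.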

How the results depend on the processing

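The count of 703 genes lay between 513 and 723 with a pseudocount of 0.1, a filter at 5 FPKM or over all 17 libraries, 2 other scalings, library sets as a random effect or values listed at 0 set to missing. It was 290 with no filter, 10 with only the 6 libraries, 1627 with sample quality weights, 96 with the GC correction, 22 with that correction and library 14 left out, 0 with that correction and only the 6 libraries (1396 at an unadjusted p under 0.05 in limma), and 78 to 1659 with a library left out. Quantile normalization gave 143 higher and 370 lower (27.9% higher against 13.9%), and moved the median of all genes from -0.03 to 0.07. The cause of these shifts was not tested. The count of 1 for the difference from GFP+mCherry+ cells became 0 with a pseudocount of 0.1, a filter at 5 FPKM, only the groups compared or the GC correction, 2 with a filter over 17 libraries, 7 with weights, 40 with no filter, and 0 to 10 with a library left out. That from GFP-mCherry- cells became 0 with a pseudocount of 0.1, a filter at 5 FPKM, either other scaling, only the groups compared or the GC correction, 17 with weights, and 0 to 11 with a library left out.

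Of the 137 genes named, those that turned sign had not passed the test, except NOTUM, which was at 0.08 after the GC correction and 0.09 with only the 6 libraries as well. With the GC correction alone, with it and only the 6 libraries, and with it and without library 14, MYL7 had 0.04, 0.05 and 0.27, HCN4 0.36, 0.36 and 0.22, CD74 0.21, 0.22 and 0.04, and TNNI3 0.46, 0.46 and 0.73. With that correction and without library 14, MYL4 had 0.05 and RYR2 -0.09. TNNI3 had 0.03 with weights and PPARGC1A 0.02 with quantile normalization. With a library left out, the ranges were -0.48 to 0.05 for MYL7, -0.45 to 0.32 for TNNI3 and -0.05 to 0.35 for RYR2 (sign turned without library 14), -0.01 to 0.62 for SPI1 (without 8), -0.42 to 0.19 for CD74 (without 2), -0.14 to 0.73 for MYH7 (without 2 or 11) and -0.44 to 0.19 for PPARGC1A (without 5 or 17).

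No paired analysis was possible because the libraries of day 25 and day 40 share no number in the labels. Without read counts, low values cannot be given a counting error, and 40 of the 98 genes that rose had a mean under 5 FPKM on day 40.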
